A study of Mus musculus with 18 samples.

Results

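Acta2, Actg2, Tagln, Cnn1, Cnn2, Myl9, Tpm1, Tpm2, Cald1 and Lmod1 encode proteins of the contractile apparatus of smooth muscle, several of which also appear when a fibroblast turns into a myofibroblast. They were chosen by their gene symbols, which gave 10 of the 55450 genes in the deposited table. All 10 passed edgeR's filter on low counts, which kept 21161 genes.

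The data are RNA sequencing counts from mouse embryonic fibroblasts (MEF) from ATCC, a culture collection, in 18 libraries that form 6 groups of 3. Every culture was transfected with Lipofectamine, and 6 h later it was given TGF-β for 24 h or left without it. The empty vector groups received pcDNA3. The Col1a1-miR-29b groups received a pcDNA3 plasmid in which a rat Col1a1 promoter drives EGFP and a human miR-29b precursor, and which also carries mRFP1 behind an SV40 promoter to mark transfected cells. In the CMV-miR-29b groups, the CMV promoter stood in place of the Col1a1 promoter. The empty vector is not described as carrying EGFP or mRFP1, so each comparison of vectors also compares plasmids that differ in these inserts. The paper describes doses of plasmid set by molar amount. By mass, more DNA was therefore given with Col1a1-miR-29b than with CMV-miR-29b. The libraries held 65898017 to 80332633 counts each (median 74155860). Titles of the samples do not say whether the 3 libraries of a group came from separate cultures. The study's paper speaks of 3 repeated experiments in each group without saying how they map to the libraries, and each p-value measures the spread between these libraries.

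Smooth muscle contracts when myosin, switched on by phosphorylation of its regulatory light chain, pulls on actin filaments that carry tropomyosin, caldesmon and calponin. Myofibroblasts are fibroblasts that have taken up part of this apparatus, and α-smooth muscle actin, the product of Acta2, is their usual marker. Many of these genes are controlled by serum response factor (SRF) with its cofactors of the myocardin family, and TGF-β is a well known inducer of the myofibroblast state.

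The genes that mark differentiated smooth muscle stood at very different levels. Myh11, the smooth muscle myosin heavy chain, had 4 to 40 counts per library, and Myocd, the myocardin cofactor found in smooth and cardiac muscle, had 0 counts in each library but Col1a1-miR-29b with TGF-β replicate c, which had 4. Smtn, which encodes smoothelin, had 6244 to 10534 counts, and Des, which encodes desmin, had 951 to 1630. All 5 smooth muscle markers fixed for this check (Myh11, Smtn, Des, Cnn1 and Lmod1) were detected, and their summed level was 8581 to 9292 normalised counts per library in empty vector cells without TGF-β and 11750 to 11807 with it, most of it from Smtn. Cnn1 and Lmod1 are also among the 10 contractile genes. A normalised count here is a count scaled by edgeR's TMM factors. Of the 9 fibroblast markers, the most abundant was Col1a1, and their summed level ran from 133607 to 388980 (163446 to 187513 with the empty vector untreated and 325593 to 388980 after TGF-β), while Lum had 0 counts in every library. The markers did not move together: with TGF-β in empty vector cells Col1a1, Col1a2 and Pdgfrb rose by 1.26, 1.48 and 0.83 on the log2 scale, and Dcn had −1.11 (edgeR adjusted p = 0.00446, and −0.43 with limma on log2(FPKM + 1), also past the threshold) and S100a4 −0.29 (adjusted p = 0.0236). The call on S100a4 held in 12 of 17 other fits (11 alternatives and 6 that leave out a library), where its adjusted p reached 0.164, and it ended with the groups compared alone, with the replicate block, and without untreated replicate e (adjusted p = 0.113) or treated replicates c (adjusted p = 0.0842) or e (adjusted p = 0.106). The replicate block enters the letter of a library in the model and leaves out the unlettered libraries, which are the third of each Col1a1-miR-29b group. The 10 genes are therefore described as contractile genes in a fibroblast culture. In bulk RNA, fewer cells that carry a transcript and less of the transcript per cell cannot be told apart.

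Markers of other cell types were summed in the same way. The sum of the 5 pericyte markers was 3306 to 5024 normalised counts, mostly Notch3, with Kcnj8 at 0 in every library. The sums were 76.6 to 226 for the 5 endothelial markers, 31.3 to 226 for the 5 epithelial markers and 28.5 to 122 for the 5 immune markers, and their most abundant genes were Cdh5, Krt14 and Csf1r. With the empty vector the endothelial sum was 81.0 to 114 untreated and 174 to 217 after TGF-β, and the epithelial sum was 50.3 to 85.9 and 119 to 210.1. Cdh5 rose there by 1.74 on the log2 scale (edgeR adjusted p = 0.00277) and passed in all 17 other fits, with values from 0.30 to 1.98. Krt14 rose there by 1.53 (edgeR adjusted p = 0.0230), a call that held in 10 of 17 other fits. With CMV-miR-29b Krt14 rose by 2.34 (edgeR adjusted p = 0.00154), held in 16 of 17. The 10 striated muscle markers, of which Myf5 had 0 counts in every library, summed to 531 to 621 in empty vector cells without TGF-β and 4490 to 6041 with it. Tnnt2, the cardiac form of troponin T, made up most of the untreated sum and almost all of the treated one. It went from 480.3 ± 43.2 to 5365 ± 815 normalised counts (SD, n = 3), which is 3.48 on the log2 scale (standard error 0.13, edgeR adjusted p = 2.57e-10). Tnnt2 also rose with TGF-β by 3.18 under Col1a1-miR-29b and by 3.19 under CMV-miR-29b. The part of these markers in the changes of the contractile genes was not tested.

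Levels between genes were compared in FPKM, the deposited unit that is scaled for transcript length, in 16 libraries. In empty vector cells without TGF-β, Tpm2 stood at 50.9 ± 0.996 (SD, n = 3) and Cald1 at 42.7 ± 0.843. Tpm1 followed at 23.5 ± 2.02 and Cnn2 at 18.4 ± 2.67. These are the members found in many cell types besides muscle. A gap separated them from the others, of which Cnn1 had a level of 2.61 ± 0.238, Acta2 of 1.39 ± 0.138 and Tagln of 0.957 ± 0.198. Myl9, Lmod1 and Actg2 were lowest, at 0.541 ± 0.0736, 0.232 ± 0.0327 and 0.143 ± 0.106. Libraries of neighbours in this order did not overlap, except those of Lmod1 and Actg2.

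With TGF-β the order in empty vector cells was Cald1, Tpm2, Tpm1, Cnn2, Acta2, Cnn1, Tagln, Myl9, Actg2 and Lmod1. Acta2, at 4.23 ± 0.542 FPKM (SD, n = 3), had passed Cnn1, at 1.64 ± 0.255. Neighbours whose libraries overlapped were Cald1 and Tpm2, Cnn1 and Tagln, Myl9 and Actg2, and Actg2 and Lmod1. Acta2 was thus a gene of middle level in these cells: its mean over the 16 libraries, 2.77 FPKM, lay at percentile 52.1 of the genes tested, against 95.4 for Cald1 and 20.0 for Actg2.

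**Figure D1:**
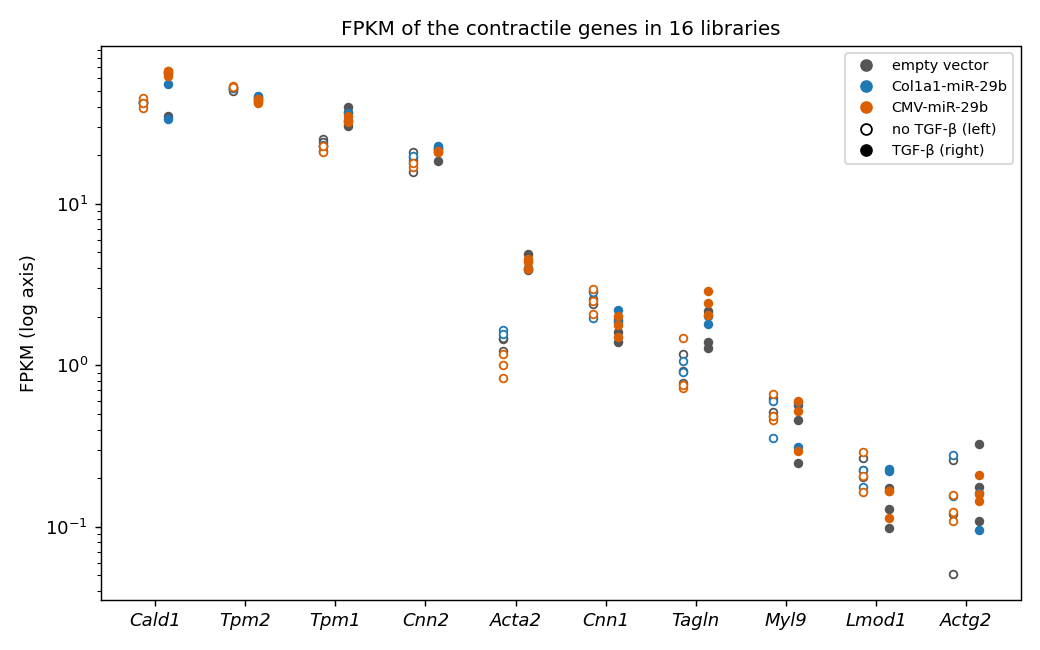
FPKM of each contractile gene on a log axis, 1 point per library (16 libraries), genes ordered by their mean, open points without TGF-β at the left of each gene and filled points with TGF-β at the right. Cald1, Tpm2, Tpm1 and Cnn2 lie above 10 FPKM in every library, and the other genes lie under 5.

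The sequence of miR-29b is shown because the vectors were built to raise it, with its seed (bases 2 to 8) in capitals. It is the mouse mature form in RefSeq (GRCm38.p6), which is the same at Mir29b-2 (chr1:195037091-195037113, plus strand) and Mir29b-1 (chr6:31063025-31063047, minus strand).
miR-29b-3p: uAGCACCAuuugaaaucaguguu
Only the longest annotated 3′ UTR of each gene was searched. A match to this seed, the letters TGGTGCT, was found in that of 1 of the 10 contractile genes, Tpm1. It starts at base 1502 after the stop codon of a UTR of 1899 bases (GRCm38 chr9:67022976-67022998, minus strand), with the match in capitals.
Tpm1 site: gtgcggatTGGTGCTaatttaaa
Of 14375 tested protein-coding genes with a 3′ UTR, 14.8% held such a match. A match of letters is a description and not a target shown to be bound. Tpm1 has 21 transcripts in the deposited table, and which of them carry the site was not examined.

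Promoter sequences from 250 bases before to 50 after the start were found in RefSeq (GRCm38.p6) for 8 of the 10 genes, with 2 starts for Cald1, which makes 9 promoters. Actg2 and Tagln have no entry. Searched on both strands were the CArG box that SRF binds (CC, 6 bases of A or T, then GG), the TEAD motif CATTCC and the SMAD motif CAGAC. The CArG box was found in Cnn2, 56 bases before the start, and in Myl9, 161 bases before it, and in 1.63% of all 32851 promoters of the table. A looser form, in which 1 of the central 6 bases may be G or C, was chosen after the sequences were seen and includes the strict form. It was found in Acta2, 84 and 34 bases before the start, in Cnn2 and at 2 places in Myl9, and in 9.98% of all promoters. CATTCC was present in Acta2, Tpm1, Lmod1 and the first Cald1 promoter (14.7% of all promoters), and CAGAC in Acta2, Cnn1 and both Cald1 promoters (49.6%).

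Cnn2 and Myl9 hold the strict CArG box, and neither had an edgeR adjusted p under 0.05 with TGF-β under any vector. The promoters of Acta2 and Tpm1, which rose with TGF-β under every vector, and of Cnn2 are shown with each match in capitals.
Acta2, chr19:34255324-34255623, minus strand: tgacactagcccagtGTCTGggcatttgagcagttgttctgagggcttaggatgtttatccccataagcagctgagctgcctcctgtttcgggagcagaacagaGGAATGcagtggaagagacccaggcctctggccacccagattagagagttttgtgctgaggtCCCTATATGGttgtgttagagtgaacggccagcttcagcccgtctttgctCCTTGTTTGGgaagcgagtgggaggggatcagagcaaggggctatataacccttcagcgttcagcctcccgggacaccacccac
Tpm1, chr9:67049164-67049463, minus strand: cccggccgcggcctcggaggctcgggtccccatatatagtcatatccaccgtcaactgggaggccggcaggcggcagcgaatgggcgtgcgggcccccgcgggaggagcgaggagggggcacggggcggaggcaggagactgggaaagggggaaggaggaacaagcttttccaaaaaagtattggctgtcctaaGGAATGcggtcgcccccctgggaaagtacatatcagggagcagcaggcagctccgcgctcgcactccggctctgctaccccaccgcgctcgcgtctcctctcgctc
Cnn2, chr10:79988350-79988649, plus strand: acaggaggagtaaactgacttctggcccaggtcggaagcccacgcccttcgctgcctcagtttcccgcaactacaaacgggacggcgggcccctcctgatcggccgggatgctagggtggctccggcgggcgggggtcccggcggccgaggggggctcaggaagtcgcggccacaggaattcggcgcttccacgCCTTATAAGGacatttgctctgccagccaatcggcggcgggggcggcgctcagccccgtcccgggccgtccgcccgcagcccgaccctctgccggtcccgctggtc
In the Acta2 sequence the capitals are, in order, CAGAC on the other strand, CATTCC on the other strand and both loose CArG boxes. The capitals in Tpm1 mark CATTCC on the other strand.

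The first question was which contractile genes respond to TGF-β in cells without the miR-29b plasmid. With the empty vector, 4 of the 10 passed the threshold, which is a p under 0.05 after Benjamini-Hochberg adjustment over all genes tested, from the quasi-likelihood test of edgeR. Acta2 and Tpm1 rose, and Cnn1 and Tpm2 fell. Over all genes tested, 5.88% passed, 3.88% higher and 2.01% lower. The libraries with and without TGF-β did not overlap for 6 of the 10 genes and for 21.0% of all genes tested. Without treated replicate e, 725 of all genes passed against 1245, and 3 of the 10. The median log2 fold change of the 10 was 0.30, and that of all genes tested was 0.0023.

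The same count was 4 of 10 in Col1a1-miR-29b cells, where 4.32% of all genes passed, 634 genes higher and 280 genes (1.32%) lower. Acta2, Tagln and Tpm1 rose and Tpm2 fell, and libraries did not overlap for 5 of the 10 and for 21.9% of all genes. The count that passed was 3 without the third untreated library and 2 without any other of the 6 libraries, and of all genes 630 to 679 passed in these fits against 914. In CMV-miR-29b cells 4 of 10 passed against 4.95% of all genes (3.08% higher and 1.87% lower). Again Acta2, Tagln and Tpm1 rose and Tpm2 fell, and libraries did not overlap for 7 of the 10 and for 20.9% of all genes. The medians of the 10 genes were 0.16 and 0.34. Each of these 3 comparisons contrasts its own 6 libraries, but the spread behind its p-values is estimated from all 18 libraries together.

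**Figure D2:**
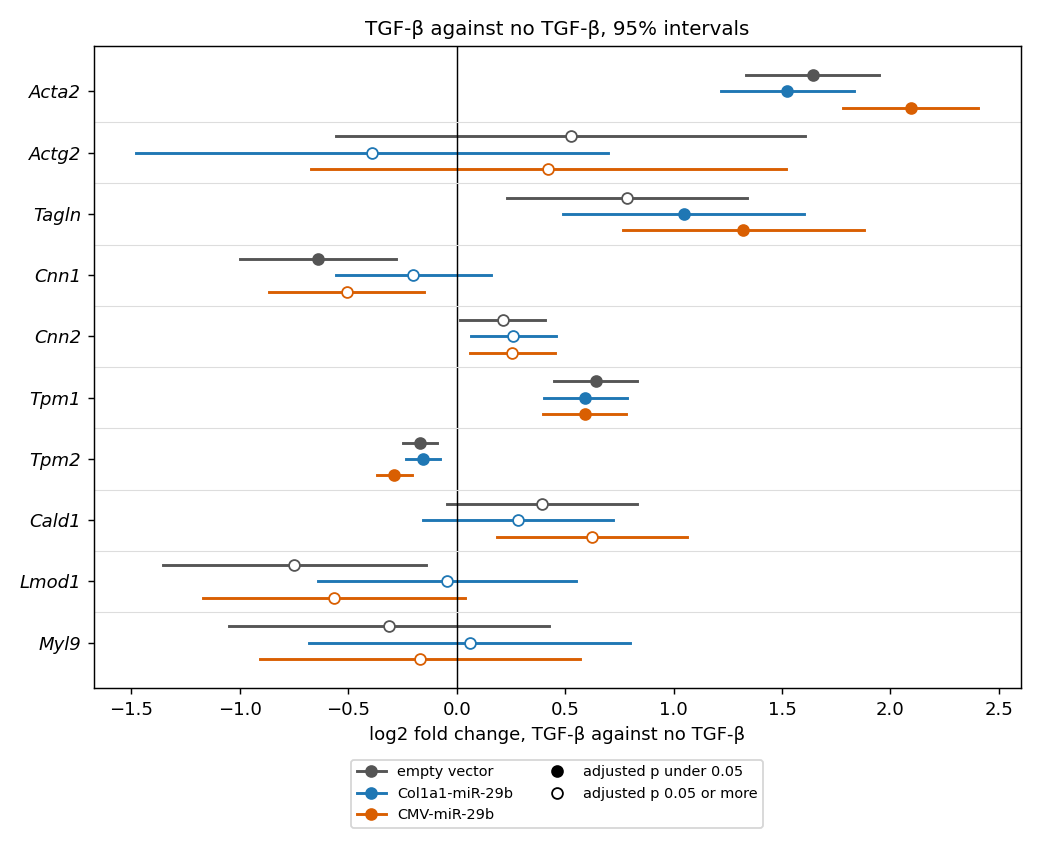
Log2 fold change of the 10 contractile genes with TGF-β against no TGF-β in cells with each vector (colours), with 95% intervals from edgeR's quasi-likelihood fit on 3 libraries per group. Filled points have an adjusted p under 0.05. Acta2 and Tpm1 lie to the right of 0 and Tpm2 to the left of 0 under all 3 vectors.

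Acta2 is on the minus strand of chromosome 19 (ENSMUSG00000035783). In empty vector cells its normalised counts were 226, 268 and 268 untreated and 752, 897 and 730.4 after TGF-β. Col1a1-miR-29b cells had 299, 278 and 217 untreated and 803, 724 and 757 after TGF-β. CMV-miR-29b cells had 185, 213 and 153 untreated and 827, 725 and 799 after TGF-β. Every treated library, at 724 or more, lay above every untreated one, at 299 or less. The log2 fold change was 1.64 with the empty vector (standard error 0.14, adjusted p = 2.11e-06), 1.52 with Col1a1-miR-29b (standard error 0.14, adjusted p = 5.67e-06) and 2.09 with CMV-miR-29b (standard error 0.15, adjusted p = 2.12e-07). As folds these are 3.12, 2.88 and 4.27. With limma on log2(FPKM + 1) the value for Col1a1-miR-29b was 0.99, and it passed. The 3 untreated CMV-miR-29b libraries lay under those of untreated empty vector cells, a difference that did not pass (adjusted p = 0.765).

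Actg2, the γ-actin of enteric smooth muscle (ENSMUSG00000059430), was close to the lower end of what the counts can show, with 9 to 43 counts per library. Its normalised counts without TGF-β were 8.39, 15.8 and 34.3 with the empty vector, and with TGF-β they were 45.0, 23.0 and 16.4. The groups overlapped. The log2 fold changes with TGF-β were 0.52 with the empty vector (95% interval −0.56 to 1.61), −0.39 with Col1a1-miR-29b (−1.48 to 0.70) and 0.42 with CMV-miR-29b (−0.67 to 1.52), and none passed the threshold, and each of the 3 intervals reaches a 2-fold change in at least 1 direction. Single libraries moved these values: the first was 0.16, 1.20 and 0.011 without untreated replicates c or e or treated replicate c. The second was −0.046 and −0.17 without untreated or treated replicate c, and the last was 0.26 without treated replicate e. Actin genes are nearly identical in their coding sequence, so reads can be assigned to the wrong one, and how the authors assigned such reads is not stated.

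Tagln encodes transgelin, an actin-binding protein of smooth muscle (ENSMUSG00000032085, chromosome 9). Empty vector cells had 131, 195 and 153 normalised counts without TGF-β and 239.7, 364 and 221 with it. In Col1a1-miR-29b cells the counts were 149.8, 172 and 155 untreated and 334, 300.3 and 353 after TGF-β. In CMV-miR-29b cells they were 122, 244 and 124 untreated and 399, 342 and 484 after TGF-β. Within each vector every treated library was above every untreated one, although untreated CMV-miR-29b replicate d, at 244, was above treated empty vector replicates c and e. The log2 fold change was 0.78 with the empty vector (standard error 0.26, adjusted p = 0.102), 1.05 with Col1a1-miR-29b (standard error 0.26, adjusted p = 0.0311) and 1.32 with CMV-miR-29b (standard error 0.26, adjusted p = 0.00604).

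The Tagln call in Col1a1-miR-29b cells rested on all 6 of its libraries. Leaving out any single library of this comparison ended it, with log2 fold changes of 0.99 to 1.11 and adjusted p of 0.0598 to 0.123. Without Col1a1-miR-29b replicates c or d or the third untreated library the adjusted p was 0.123, 0.0728 and 0.116, and without the treated replicates c or d or the third treated library it was 0.0862, 0.0598 and 0.104. Over all 11 alternatives its adjusted p there ran from 0.00297 to 0.254, and the call also ended with the looser filter, the replicate block, without the unlettered libraries and with limma on both FPKM scales. The value of Tagln with the empty vector was 0.52 without treated replicate d. With limma on log2(FPKM + 1) the values of Tagln were 0.41, 0.55 and 0.82 in empty vector, Col1a1-miR-29b and CMV-miR-29b cells, and the last of these passed. In empty vector cells DESeq2 gave Tagln an adjusted p of 0.0458, and over all 11 alternatives its adjusted p ran from 0.0458 to 0.197. With CMV-miR-29b its call ended when the groups were compared alone (adjusted p = 0.0865), and over all 11 alternatives its adjusted p ran from 4.66e-05 to 0.0865. Tagln overlaps Gm48529, a gene on the opposite strand with 104 to 192 counts, over 3627 bases. It also overlaps Pcsk7, on the opposite strand and with 2126 to 3441 counts, over 94 bases. Libraries were prepared with a stranded kit, but the strand setting of the counting is not stated, so reads of these neighbours could be among those of Tagln.

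Calponins bind actin and slow the myosin motor, and Cnn1 is the form held to be typical of smooth muscle (ENSMUSG00000001349, chromosome 9). Its normalised counts in empty vector cells were 659.9, 550.0 and 579 untreated and 331, 439 and 379 after TGF-β. Col1a1-miR-29b cells had 442, 633 and 533 untreated and 419.8, 503 and 478 after TGF-β. CMV-miR-29b cells had 578, 678 and 472 untreated and 340.5, 466 and 409 after TGF-β. Treated libraries lay under untreated ones in the empty vector and CMV-miR-29b cells and overlapped them in Col1a1-miR-29b cells. With the empty vector Cnn1 fell by 0.64 on the log2 scale (standard error 0.17, adjusted p = 0.0342). The values were −0.20 with Col1a1-miR-29b (95% interval −0.56 to 0.16, adjusted p = 0.702) and −0.51 with CMV-miR-29b (95% interval −0.87 to −0.15, adjusted p = 0.114). The value with Col1a1-miR-29b was −0.33 without untreated replicate c, −0.059 without untreated replicate d and −0.13 without treated replicate c. Cnn1 thus went the opposite way to Acta2 in empty vector cells.

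The fall of Cnn1 did not pass in 5 of the 6 fits that leave out a library. Its log2 fold change was −0.57 (adjusted p = 0.122) without empty vector replicate c, −0.70 (adjusted p = 0.0523) without d and −0.67 (adjusted p = 0.0740) without e. Among treated libraries it was −0.55 (adjusted p = 0.143) without c and −0.64 (adjusted p = 0.110) without e. Over the other alternatives the adjusted p of Cnn1 ran from 0.00481 to 0.0745, and 6 of 11 passed.

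Cnn2, a calponin found also outside muscle (ENSMUSG00000004665, chromosome 10), was higher than Cnn1 in FPKM in every library. Its normalised counts with the empty vector were 4327, 3210 and 3787 untreated and 4664, 3821 and 4632 after TGF-β. In Col1a1-miR-29b cells they were 3916, 3947 and 3617 untreated and 4491, 4727 and 4528 after TGF-β. In CMV-miR-29b cells they were 3720, 3453 and 3649 untreated and 4246, 4399 and 4278 after TGF-β. The groups overlapped with the empty vector and did not overlap with either miR-29b vector. The log2 fold changes were 0.21, 0.26 and 0.26, with adjusted p of 0.245, 0.160 and 0.153. Their 95% intervals, 0.016 to 0.41, 0.064 to 0.46 and 0.060 to 0.45, have no upper bound above 0.46. Without untreated replicate d the first value was 0.10.

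Tropomyosins lie along the actin filament and govern access of myosin to it, and each gene makes several isoforms that gene counts do not separate. Tpm1 (ENSMUSG00000032366, chromosome 9) had 13660.3, 11492 and 12984 normalised counts in untreated empty vector cells and 20681, 16567 and 22249 in treated ones. In Col1a1-miR-29b cells the counts were 12031, 12194 and 12958 untreated and 17738, 19713 and 18617 after TGF-β. In CMV-miR-29b cells they were 12389, 11215 and 12244 untreated and 17345, 18923 and 17666 after TGF-β. All 9 treated libraries, at 16567 or more, lay above all 9 untreated ones, at 13660 or less. The rise was 0.64 on the log2 scale with the empty vector (standard error 0.090, adjusted p = 0.000265), 0.59 with Col1a1-miR-29b (standard error 0.090, adjusted p = 0.000706) and 0.59 with CMV-miR-29b (standard error 0.090, adjusted p = 0.000675). With the empty vector this is 1.56-fold. Tpm1 is the gene with the miR-29b seed match.

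Tpm2 (ENSMUSG00000028464, chromosome 4) moved the other way, by less, and with the smallest standard error of the 10 genes. It had 12605, 12399.8 and 11974 normalised counts in empty vector cells and 11430.5, 10501 and 10965 with TGF-β. Col1a1-miR-29b cells had 12444, 12364 and 12149.6 untreated and 11137, 11066 and 10974 after TGF-β, and CMV-miR-29b cells had 13108, 12780 and 12768 untreated and 10142, 10756 and 10779 after TGF-β. All 9 treated libraries, at 11430.5 or less, lay under all 9 untreated ones, at 11974 or more. The log2 fold change was −0.17 with the empty vector (standard error 0.037, adjusted p = 0.0119), −0.16 with Col1a1-miR-29b (standard error 0.037, adjusted p = 0.0251) and −0.29 with CMV-miR-29b (standard error 0.037, adjusted p = 0.000145). The call in Col1a1-miR-29b cells was lost without untreated replicates c (adjusted p = 0.0780) or d (adjusted p = 0.0938), and without treated replicates c (0.0642) or d (0.0885) or the third treated library (0.0895), with log2 fold changes of −0.16 to −0.15. It was also lost there with the replicate block (adjusted p = 0.197), without the unlettered libraries (adjusted p = 0.124) and with the groups compared alone (adjusted p = 0.0508), and over all 11 alternatives the adjusted p ran from 0.00230 to 0.197. In the empty vector comparison the call on Tpm2 ended when the groups were compared alone, at −0.17 (adjusted p = 0.136), and over all 11 alternatives its adjusted p ran from 0.000211 to 0.136.

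Caldesmon, the product of Cald1 (ENSMUSG00000029761, chromosome 6), binds actin and tropomyosin and restrains myosin. In untreated cells its normalised counts were 42894, 43731 and 41764 with the empty vector, 41544, 41976 and 40574 with Col1a1-miR-29b and 45652, 38853 and 42090.5 with CMV-miR-29b. With TGF-β they were 66944, 65516 and 36002 with the empty vector, 33185, 55899 and 61664 with Col1a1-miR-29b and 66027, 66961 and 62127 with CMV-miR-29b. Of the 9 treated libraries, 7 lay above every untreated library and 2 lay under every untreated one, namely empty vector replicate e and Col1a1-miR-29b replicate c. The log2 fold change was 0.39 with the empty vector (95% interval −0.046 to 0.83, adjusted p = 0.364), 0.28 with Col1a1-miR-29b (95% interval −0.16 to 0.72, adjusted p = 0.642) and 0.62 with CMV-miR-29b (95% interval 0.18 to 1.06, adjusted p = 0.114). Without empty vector replicate e with TGF-β the first value was 0.62 (adjusted p = 0.0610). Without treated empty vector replicates c or d it was 0.24 and 0.26. Without Col1a1-miR-29b replicate c with TGF-β the second was 0.51 (adjusted p = 0.187), and without the third treated library it was 0.11 (adjusted p = 0.948). It was 0.076 with the replicate block, 0.087 without the unlettered libraries and 0.017 with limma on both FPKM scales. In CMV-miR-29b cells the rise of Cald1 passed with DESeq2 (adjusted p = 0.0308) and with the groups compared alone (adjusted p = 0.00473), and over all 11 alternatives its adjusted p ran from 0.00473 to 0.176.

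Lmod1, leiomodin, starts actin filaments in smooth muscle (ENSMUSG00000048096, chromosome 1), and it had 33 to 104 counts per library. Its normalised counts in empty vector cells were 74.6, 67.0 and 87.8 untreated and 44.0, 58.5 and 33.8 after TGF-β. In Col1a1-miR-29b cells they were 57.5, 72.4 and 108 untreated and 73.7, 75.1 and 81.6 after TGF-β. In CMV-miR-29b cells they were 69.3, 95.3 and 54.4 untreated and 54.9, 37.6 and 55.4 after TGF-β. Treated and untreated libraries did not overlap with the empty vector, where all treated ones were lower, and overlapped with both miR-29b vectors. The log2 fold changes were −0.75 (95% interval −1.35 to −0.14, adjusted p = 0.165), −0.044 (95% interval −0.64 to 0.55, adjusted p = 0.980) and −0.56 (95% interval −1.17 to 0.040, adjusted p = 0.367) in the same order of vectors, and none passed. Without untreated replicate d the last was −0.33, and for Col1a1-miR-29b the value ran from −0.24 without untreated replicate c to 0.23 without the third untreated library.

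Myl9, the regulatory myosin light chain of smooth muscle (ENSMUSG00000067818, chromosome 2), had 26 to 66 counts per library. Its normalised counts in empty vector cells were 61.5, 51.2 and 46.7 untreated and 57.6, 24.9 and 46.0 after TGF-β. The groups overlapped under every vector. The log2 fold changes were −0.31 with the empty vector (95% interval −1.05 to 0.42), 0.060 with Col1a1-miR-29b (−0.68 to 0.80) and −0.17 with CMV-miR-29b (−0.90 to 0.57), with adjusted p of 0.758, 0.977 and 0.905. The first was −0.59 without treated replicate c and −0.047 without treated replicate d. The second ran from −0.11 without treated replicate c to 0.28 without untreated replicate d, and the last from −0.36 to 0.062 without treated replicates c or d.

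**Figure D3:**
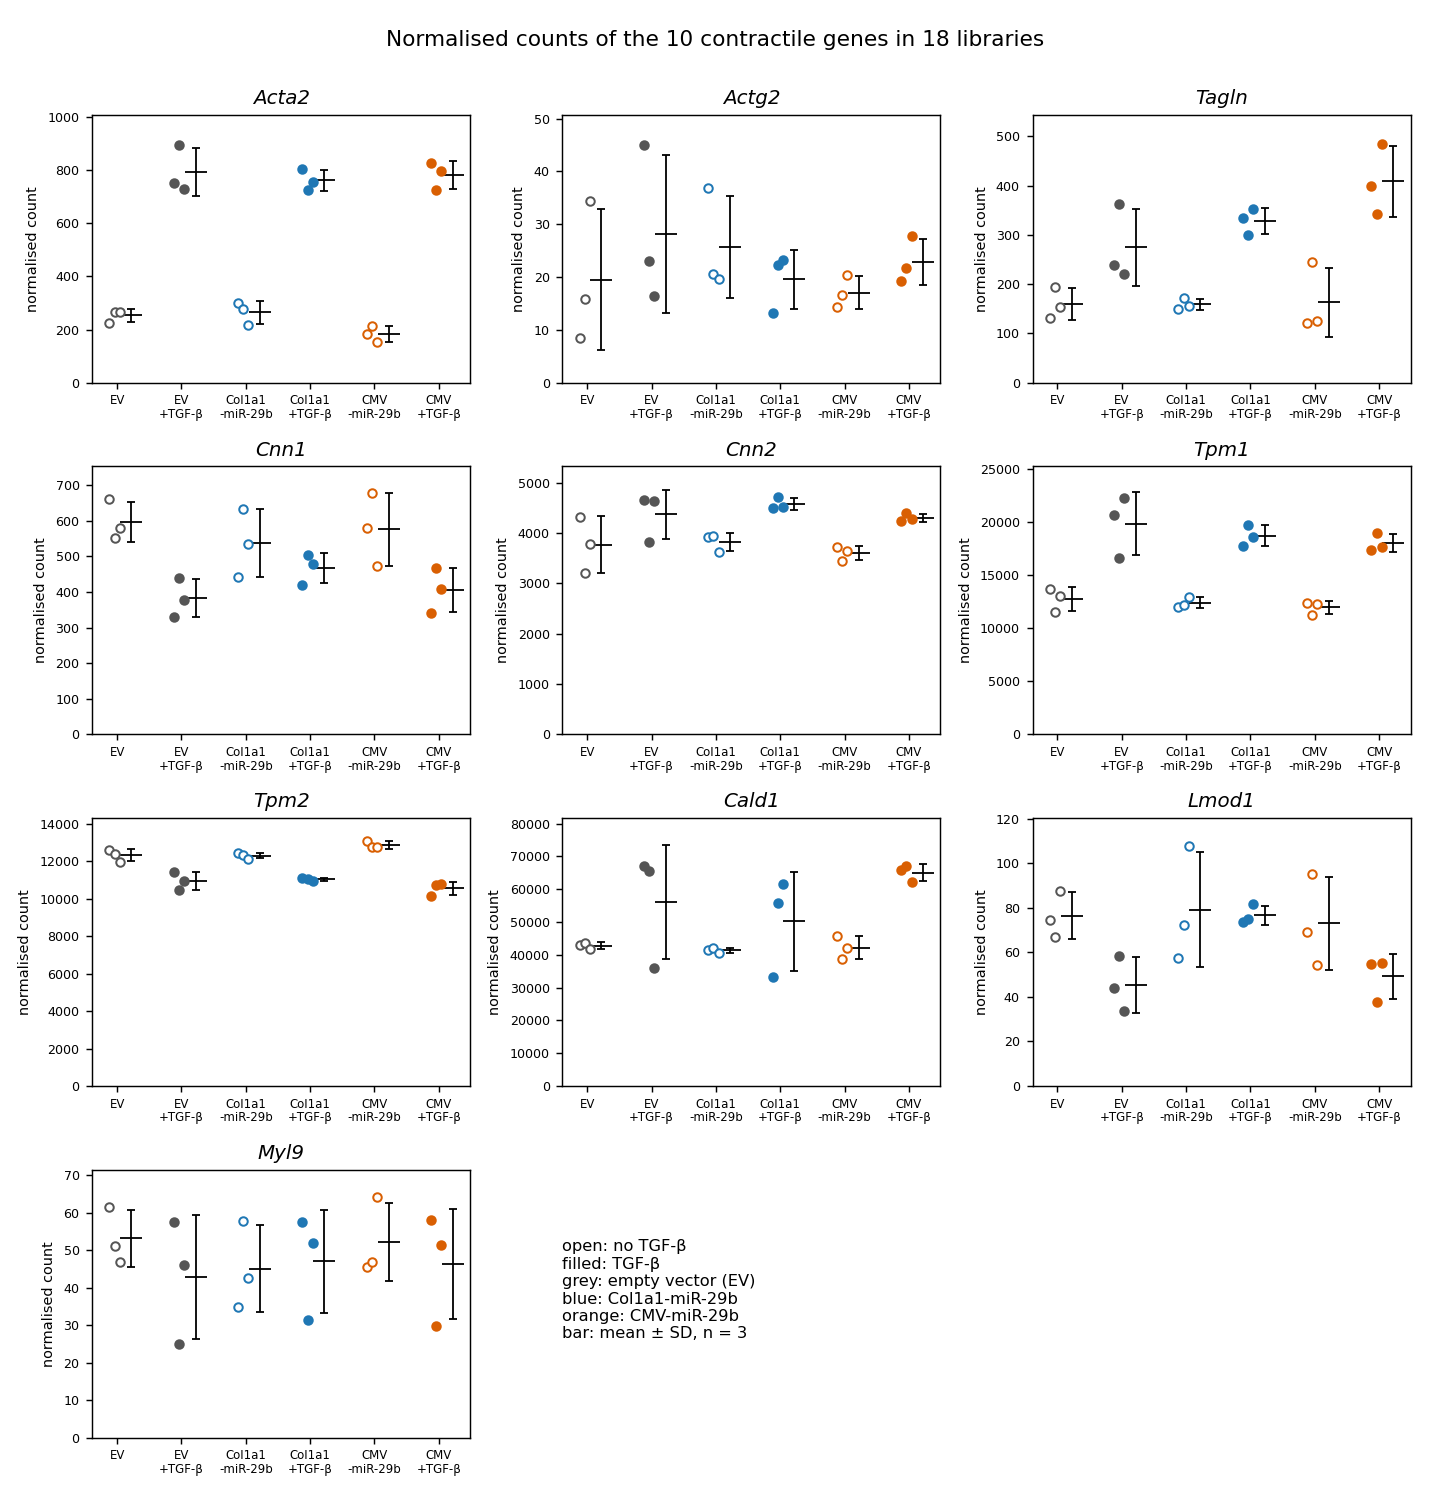
Normalised counts of each contractile gene in the 18 libraries, 1 point per library, with the mean and SD of each group of 3 as a bar, on axes that start at 0. Acta2 and Tpm1 are higher and Tpm2 is lower in all 9 treated libraries, and Cald1 has 2 treated libraries under the untreated ones.

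The next question was whether either miR-29b vector changed the contractile genes. Compared with empty vector cells, 0 of the 10 passed in Col1a1-miR-29b cells with TGF-β, where 12.9% of all genes passed, and 0 of the 10 in CMV-miR-29b cells with TGF-β, where 0.00945% passed. Without TGF-β the counts were again 0 of 10 for Col1a1-miR-29b, against 6.27% of all genes, and 0 of 10 for CMV-miR-29b, against 0.00473%. These 0 counts are from edgeR, and DESeq2 and limma on both FPKM scales also gave 0 in each of the 4 comparisons. At an unadjusted p under 0.05 there were 1, 1, 0 and 1 of the 10 genes, against 5518, 2531, 4560 and 1156 of the 21161 genes tested. Both vectors are compared with the same empty vector libraries. The share over all genes moved with the tool and with single libraries, while the count for the 10 genes was 0 in each of these fits. For Col1a1-miR-29b with TGF-β, DESeq2 passed 3488 genes and edgeR 2738 (1152 with the replicate block, 1659 without the unlettered libraries, 1072 with the groups compared alone and 1752 and 1633 with limma), and edgeR passed 1666 and 1291 without treated empty vector replicates c or e and 1498 and 1810 without Col1a1-miR-29b replicate c or the third library. Without TGF-β DESeq2 passed 2362 and edgeR 1327 (161 with the replicate block, 397 without the unlettered libraries, 782 with the groups compared alone and 481 and 390 with limma), with 468 and 567 without untreated empty vector replicates c or d and 823, 482 and 640 without Col1a1-miR-29b replicates c or d or the third library. For CMV-miR-29b with TGF-β DESeq2 passed 284 genes and edgeR 2 (7 with the groups compared alone), and edgeR passed 160 without treated empty vector replicate d and 3 to 7 without any other of the 6 libraries. Without TGF-β DESeq2 passed 37 and edgeR 1 (10 with the groups compared alone), with 1 to 5 when a library was left out.

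The 3 genes behind these unadjusted counts were Lmod1, Tagln and Acta2. Lmod1, with TGF-β, was at 76.8 ± 4.22 normalised counts (SD, n = 3) with Col1a1-miR-29b against 45.4 ± 12.4 with the empty vector, without overlap, a log2 fold change of 0.75 (95% interval 0.15 to 1.36, edgeR adjusted p = 0.0999). Tagln, with TGF-β, was at 408 ± 71.3 with CMV-miR-29b against 275 ± 77.5, with overlap, a log2 fold change of 0.57 (95% interval 0.025 to 1.12, adjusted p = 0.395). Acta2, without TGF-β, was at 184 ± 30.2 with CMV-miR-29b against 254 ± 24.0, without overlap, a log2 fold change of −0.47 (95% interval −0.77 to −0.16, adjusted p = 0.765). None of them held after adjustment over all genes. Over the alternatives the value ran from 0.11 to 0.79 for Lmod1, from 0.41 to 0.62 for Tagln and from −0.48 to −0.26 for Acta2.

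A p that misses the threshold does not show that a level was the same, so the intervals give what these data allow. For Tpm2 they were narrow: −0.067 to 0.092 with Col1a1-miR-29b and −0.13 to 0.025 with CMV-miR-29b, both with TGF-β. For Tpm1, the gene with the seed match, they were −0.28 to 0.10 and −0.33 to 0.049. The Tpm1 values, −0.086 and −0.14, were −0.21 and −0.26 without treated empty vector replicate d (edgeR adjusted p = 0.0727 and 0.0915). Without treated empty vector replicate e they were 0.0090 and −0.049. For Acta2 with TGF-β the bounds were −0.35 to 0.24 and −0.31 to 0.28. Of the 10 genes with TGF-β, 8 had intervals within a 2-fold change in either direction with each vector. The exceptions were Actg2 and Lmod1 with Col1a1-miR-29b, and Actg2 and Tagln with CMV-miR-29b. Without TGF-β, 9 of 10 lay within it with each vector, and the exception was Actg2. The value of Cald1 with TGF-β turned on single libraries: it was −0.16 with Col1a1-miR-29b and 0.065 without its replicate c, and 0.21 with CMV-miR-29b and −0.024 without empty vector replicate e.

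**Figure D4:**
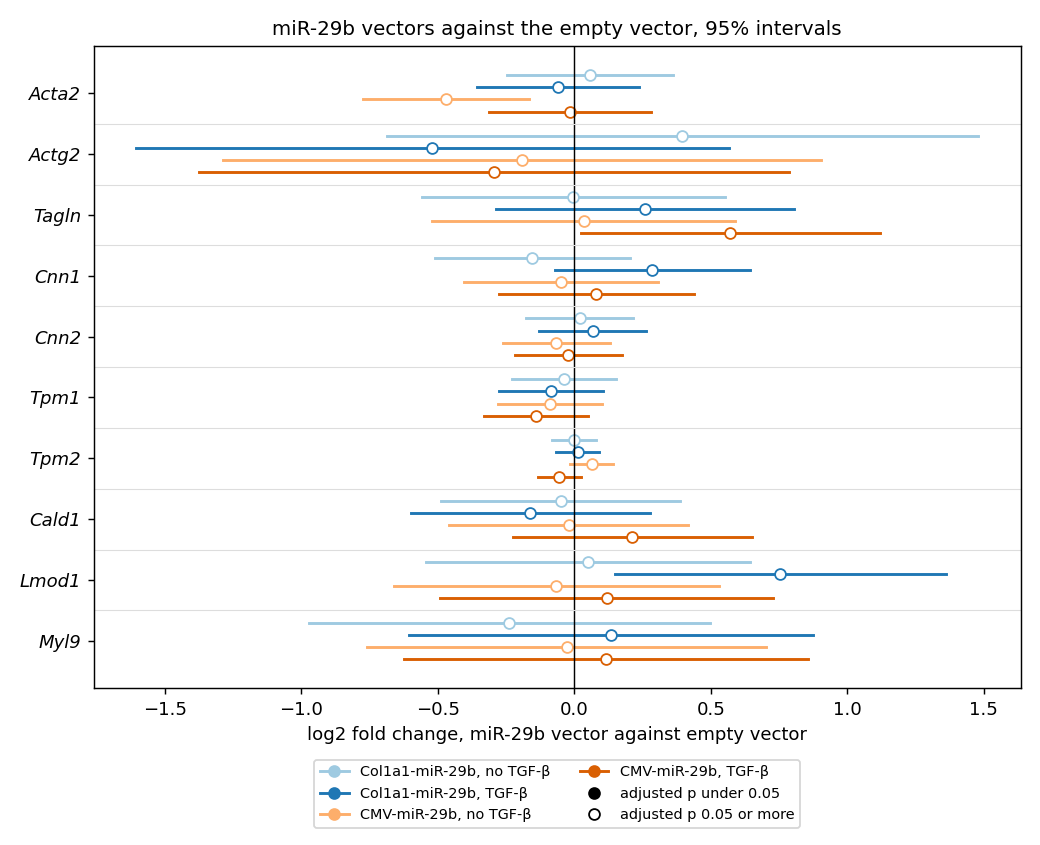
Log2 fold change of the 10 contractile genes in miR-29b vector cells against empty vector cells, without and with TGF-β (colours), with 95% intervals from edgeR's quasi-likelihood fit on 3 libraries per group. No point is filled, since none has an adjusted p under 0.05. The interval is widest for Actg2 and narrowest for Tpm2.

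Markers of fibroblasts and pericytes were also compared between vectors. With TGF-β the summed fibroblast markers were 325593 to 388980 normalised counts with the empty vector, 254640 to 263855 with Col1a1-miR-29b and 265422 to 295351 with CMV-miR-29b, and the summed pericyte markers were 4491 to 4586, 3306 to 3576 and 3776 to 4121, so neither miR-29b vector overlapped the empty vector in either sum. Without TGF-β the fibroblast sum was 163446 to 187513 with the empty vector, 133607 to 148562 with Col1a1-miR-29b and 147754 to 164525 with CMV-miR-29b. The pericyte sums were then 4449 to 5024, 3517 to 4324 and 3939 to 4865. In both untreated sums Col1a1-miR-29b did not overlap the empty vector, and CMV-miR-29b did. The most abundant gene was Col1a1 in the fibroblast sum and Notch3 in the pericyte sum. The study's paper reports that miR-29b lowered several collagen genes in these cells, so the fibroblast sum also reads out such genes. Genes of these lists past the threshold were, for Col1a1-miR-29b against the empty vector with TGF-β, Col1a1 at −0.46 on the log2 scale (edgeR adjusted p = 0.00212), Col1a2 at −0.63 (adjusted p = 0.000986) and Notch3 at −0.40 (adjusted p = 0.00585), each in all 17 other fits as well, and Pdgfrb at −0.44 (adjusted p = 0.0234) and Vim at −0.41 (adjusted p = 0.0353). The call on Pdgfrb held in 8 of 17 other fits and ended without treated empty vector replicates c or e (adjusted p = 0.0857 and 0.126) or Col1a1-miR-29b replicate c or the third library (adjusted p = 0.0900 and 0.0859). That on Vim held in 7 and ended without treated empty vector replicates c or e (adjusted p = 0.132 and 0.155) or any Col1a1-miR-29b library (adjusted p = 0.118, 0.0630 and 0.0791). Over the 11 alternatives the adjusted p ran from 0.00410 to 0.150 for Pdgfrb and from 0.00798 to 0.145 for Vim, and limma on log2(FPKM + 1) gave Pdgfrb −0.27. For Col1a1-miR-29b against the empty vector with TGF-β, edgeR passed 4 of 7 tested fibroblast markers and 1 of 3 pericyte markers, all lower. It passed 12.9% of all genes there, and 0 of these markers in the other comparisons of vectors. The markers past the threshold were named after their values were seen.

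Whether the response to TGF-β itself differed between vectors was tested as a difference of responses. For Col1a1-miR-29b, 0 of the 10 genes passed, and 0% of all genes did. For CMV-miR-29b, 0 of the 10 passed, and 0% of all genes did. At an unadjusted p under 0.05 the edgeR counts for the 10 genes were 0 and 2, against 961 and 1129 of all genes, and DESeq2 and limma on both FPKM scales gave 0 of the 10 after adjustment. Over all genes DESeq2 passed 21 for Col1a1-miR-29b and 19 for CMV-miR-29b, and limma passed 3 and 0 on each FPKM scale. The 2 genes were Acta2, with a difference of responses of 0.45 on the log2 scale for CMV-miR-29b (95% interval 0.027 to 0.88, adjusted p = 0.922), and Tpm2, with −0.12 (95% interval −0.23 to −0.0060, adjusted p = 0.922), and neither passed. For Tagln, which passed with both miR-29b vectors and not with the empty vector, the difference of responses was 0.26 with Col1a1-miR-29b (95% interval −0.52 to 1.04) and 0.54 with CMV-miR-29b (95% interval −0.24 to 1.32). For Cnn1, which passed with the empty vector, it was 0.44 with Col1a1-miR-29b (95% interval −0.066 to 0.94) and 0.13 with CMV-miR-29b (95% interval −0.37 to 0.64). Single libraries moved these values. Tagln with Col1a1-miR-29b was 0.11 without untreated empty vector replicate d and 0.53 and 0.14 without treated empty vector replicates d or e, and Tagln with CMV-miR-29b was 0.95 without untreated CMV-miR-29b replicate d. Cnn1 with CMV-miR-29b was 0.065 and 0.20 without untreated empty vector replicates c or d, 0.035 and 0.25 without the treated ones, 0.27 and 0.011 without untreated CMV-miR-29b replicates d or e, and 0.26 and 0.025 without treated CMV-miR-29b replicates c or d. Tpm2 was −0.076 without treated CMV-miR-29b replicate c. For Tagln and Cnn1 the intervals include 0, and both differences use the same empty vector libraries.

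Genes of the same families that are not among the 10 were given as a list of 14, of which 12 were tested. Actc1 and Lmod3 had at most 4 and 12 counts. With TGF-β, 2 of the 12 rose in empty vector cells, 0 under Col1a1-miR-29b and 1 under CMV-miR-29b, and none fell, where 5.88%, 4.32% and 4.95% of all genes passed. DESeq2 passed 2, 0 and 1, and limma 1, 0 and 0 on each scale. The count of 0 is from edgeR, where 4 had an unadjusted p under 0.05. Actg1, cytoplasmic γ-actin, rose by 0.43 on the log2 scale (standard error 0.10, edgeR adjusted p = 0.0180), from 41715 ± 2062 to 56057 ± 6031 normalised counts (SD, n = 3). Its call ended without empty vector replicates c (adjusted p = 0.0790) or e (adjusted p = 0.0876), or treated replicate e (0.33, adjusted p = 0.127). Actb, cytoplasmic β-actin, rose by 0.30 (standard error 0.079, adjusted p = 0.0372). The call on Actb held in 7 of 17 other fits and ended without empty vector replicates d (adjusted p = 0.128) or e (adjusted p = 0.184) and without treated replicates c (adjusted p = 0.169) or e (adjusted p = 0.146).

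Tpm4 rose in CMV-miR-29b cells by 0.18 (standard error 0.047, adjusted p = 0.0383 from edgeR), a call that held in 7 of 17 other fits and ended without untreated replicate d (0.11, adjusted p = 0.143) and without treated replicates c, d or e (adjusted p = 0.0867, 0.111 and 0.134). Cnn3, the acidic calponin, was lower in untreated Col1a1-miR-29b cells than in empty vector cells, by −0.31 (standard error 0.083, adjusted p = 0.0377). That call held in 7 of 17 other fits and ended without empty vector replicates c (adjusted p = 0.126) or e (adjusted p = 0.0757), without Col1a1-miR-29b replicate d (adjusted p = 0.0778) and without the third library (adjusted p = 0.138). Its value was −0.21 with limma on log2(FPKM + 1). Cnn3 was the single gene of the 12 past the threshold of edgeR in a comparison of vectors, in one where 6.27% of all genes passed. With TGF-β and Col1a1-miR-29b, where edgeR passed 12.9% of all genes and DESeq2 3488 of 18513, DESeq2 passed 2 of the 12 and limma 1 on each FPKM scale. Lmod2, the leiomodin of striated muscle, had 0 to 74 counts, and its log2 fold change of −1.84 with TGF-β in empty vector cells did not pass (adjusted p = 0.258).

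A list of 16 other genes of the smooth muscle programme had 13 that were tested, while Kcnmb1, Itga8 and Pdlim3 had at most 0, 4 and 8 counts. With TGF-β, 4 of the 13 rose and 1 fell in empty vector cells. In Col1a1-miR-29b cells 4 rose and 1 fell, and in CMV-miR-29b cells 5 rose. Of all genes 5.88%, 4.32% and 4.95% passed in these comparisons. DESeq2 passed 6, 6 and 6 of the 13, and limma 3, 2 and 4 on each FPKM scale. The median log2 fold changes of the 13 were 0.27, 0.45 and 0.45. Smtn, an actin-binding protein of contractile smooth muscle, rose by 0.55 (standard error 0.039, adjusted p = 2.08e-07), 0.53 (adjusted p = 5.22e-07) and 0.45 (adjusted p = 2.39e-06) under empty vector, Col1a1-miR-29b and CMV-miR-29b. Its libraries with the empty vector went from 7319, 6726 and 6819.8 to 10117, 10105 and 10299.9 normalised counts, without overlap. Csrp2, a LIM protein of smooth muscle, rose by 0.73 (standard error 0.077, adjusted p = 1.46e-05), 0.66 (adjusted p = 5.20e-05) and 0.70 (adjusted p = 2.78e-05). Both genes passed in all 17 other fits of each comparison.

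Mylk, the kinase that phosphorylates the myosin light chain, went down. It had 1349, 1344 and 1458 normalised counts in empty vector cells and 877, 1133 and 917 with TGF-β, without overlap. Mylk fell by 0.50 on the log2 scale with the empty vector (standard error 0.10, adjusted p = 0.00747) and by 0.50 with Col1a1-miR-29b (standard error 0.10), and its value with CMV-miR-29b was −0.37 (adjusted p = 0.0535). In Col1a1-miR-29b cells its call ended without replicate d of the untreated (adjusted p = 0.0598) or of the treated libraries (adjusted p = 0.0657). It also ended there with the groups compared alone (adjusted p = 0.0708), with the replicate block (adjusted p = 0.0618) and with limma on both FPKM scales (adjusted p = 0.108 and 0.130), so it held in 11 of 17 other fits, and over the 11 alternatives the adjusted p ran from 0.000239 to 0.130. Mylk in empty vector cells held in 16 of 17 and ended with the groups compared alone (adjusted p = 0.0801), the alternatives ran from 0.000110 to 0.0801, and limma on log2(FPKM + 1) gave −0.30 there and −0.30 in Col1a1-miR-29b cells.

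Synm, the intermediate filament protein synemin, rose by 0.45 (adjusted p = 0.0119), 0.39 (adjusted p = 0.0373) and 0.56 (adjusted p = 0.00283) in the same order. With the empty vector the call on Synm ended without untreated replicate d (adjusted p = 0.0680) or treated replicates d (adjusted p = 0.0564) or e (adjusted p = 0.0583), and in Col1a1-miR-29b cells it ended without any of the 6 libraries, with adjusted p of 0.0528 to 0.171. These calls held in 11 and 5 of 17 other fits, and over the 11 alternatives the adjusted p of Synm ran from 0.000831 to 0.116 and from 0.00638 to 0.415, and limma on log2(FPKM + 1) gave 0.24 in Col1a1-miR-29b cells. Ppp1r12a, the targeting subunit of myosin phosphatase, was lower under Col1a1-miR-29b than under empty vector in treated cells, by −0.22 (standard error 0.055, adjusted p = 0.0179), a call held in 9 of 17 other fits. It ended without treated empty vector replicates c (adjusted p = 0.0550) or e (adjusted p = 0.108) or Col1a1-miR-29b replicate c (adjusted p = 0.0930). The remaining calls of this list were on Ppp1r12b in all 3 comparisons and on Pdlim7 in CMV-miR-29b cells, both higher. They were named after their values were seen. The call on Ppp1r12b with the empty vector ended without untreated replicates c, d or e (adjusted p = 0.101, 0.0701 and 0.0507) or treated replicate d (0.25, adjusted p = 0.0790). It ended also with the groups compared alone, the replicate block and limma on both FPKM scales, so it held in 9 of 17 other fits, and over the 11 alternatives the adjusted p ran from 0.00322 to 0.153. In Col1a1-miR-29b cells the call on Ppp1r12b held in 14 of 17 and ended with the replicate block and limma on both scales, with alternatives from 1.82e-05 to 0.0805, and in CMV-miR-29b cells it held in all 17. That on Pdlim7 ended without untreated replicates c or e (adjusted p = 0.162 and 0.139) or treated replicates c or d (adjusted p = 0.135 and 0.0827). It ended also with the groups compared alone, the replicate block, the unlettered libraries left out and limma on both scales, so it held in 8 of 17, with alternatives from 0.00369 to 0.150.

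The third list held SRF, its cofactors and related factors, 15 genes of which 14 were tested and Myocd was not. With TGF-β, 4 rose and 1 fell in empty vector cells, 3 rose and 1 fell in Col1a1-miR-29b cells, and 2 rose in CMV-miR-29b cells, by edgeR, which passed 5.88%, 4.32% and 4.95% of all genes. DESeq2 passed 5, 5 and 3 of the 14, and limma 4, 3 and 2 on each scale. Fhl2, a LIM protein that binds SRF, rose by 1.13 (standard error 0.11, adjusted p = 3.86e-06), 1.17 (adjusted p = 3.63e-06) and 1.09 (adjusted p = 6.72e-06) with the 3 vectors. Its normalised counts went from 1354, 1108 and 1391 to 2967, 2404 and 3089.6 in empty vector cells, without overlap. Elk3, an ETS factor that works with SRF, rose by 0.60 (standard error 0.064, adjusted p = 1.41e-05), 0.52 (adjusted p = 7.96e-05) and 0.54 (adjusted p = 5.46e-05). Both held in all 17 other fits of each comparison.

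Klf4 rose by 0.34 with the empty vector (adjusted p = 0.00212) and 0.30 with Col1a1-miR-29b (adjusted p = 0.00764), and its value with CMV-miR-29b was 0.19 (adjusted p = 0.101). The calls on Klf4 held in 16 and 16 of 17 other fits and ended with the groups compared alone in empty vector cells (adjusted p = 0.0639) and with the replicate block in Col1a1-miR-29b cells (adjusted p = 0.0547). Over the 11 alternatives the adjusted p ran from 1.66e-05 to 0.0639 and from 0.000198 to 0.0547. Klf5 fell by 0.33 with the empty vector (adjusted p = 0.0162) and by 0.28 with Col1a1-miR-29b (adjusted p = 0.0475), and it did not pass with CMV-miR-29b. With the empty vector the call on Klf5 ended without untreated replicate e (adjusted p = 0.0636) or treated replicates c (adjusted p = 0.0632) or e (adjusted p = 0.0737). In Col1a1-miR-29b cells it ended without replicates c, d or the third of the untreated libraries (adjusted p = 0.123, 0.0925 and 0.134) and without treated replicates c or d (adjusted p = 0.137 and 0.207). Over the 11 alternatives the adjusted p of Klf5 ran from 0.000828 to 0.0745 and from 0.00935 to 0.177, and its calls held in 13 and 6 of 17 other fits. Both genes are Krüppel-like factors known from smooth muscle cells that lose their contractile state.

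Between vectors, Srf itself differed. With TGF-β it had 2691, 2659 and 2609 normalised counts with the empty vector, 3246, 3205 and 3171 with Col1a1-miR-29b and 2770.4, 2758 and 2713 with CMV-miR-29b. All 3 Col1a1-miR-29b libraries were above all the others. Against the empty vector the log2 fold change of Srf was 0.27 with Col1a1-miR-29b (standard error 0.056, edgeR adjusted p = 0.00508), and it passed in all 17 other fits. The value of Srf for CMV-miR-29b was 0.050 (adjusted p = 0.801). The 10 contractile genes were not past the threshold in this comparison.

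Elk3, Tead1 and Tead4 were lower under Col1a1-miR-29b than under empty vector in treated cells. With Srf these are the 4 of the 14 factors that edgeR passed there, where 12.9% of all genes passed. DESeq2 passed 5 of the 14 and limma 1 on each FPKM scale. The value for Elk3 was −0.23 (adjusted p = 0.0280), and the call ended without treated empty vector replicates c (adjusted p = 0.112) or e (adjusted p = 0.137) or Col1a1-miR-29b replicates c (adjusted p = 0.108) or d (adjusted p = 0.0593). Tead4 had −0.58 (adjusted p = 0.0337), lost without treated empty vector replicates c or e (adjusted p = 0.0719 and 0.130) and without any of the 3 Col1a1-miR-29b libraries (adjusted p = 0.0802 to 0.0867). The calls on Elk3 and Tead4 each held in 8 of 17 other fits, and Tead4 had −0.36 with limma on log2(FPKM + 1). Tead1 stood at 10368, 1946 and 2475 normalised counts in treated empty vector cells, so 1 library, replicate c, was far above the others. Its log2 fold change was −1.70 (adjusted p = 0.0221) between these vectors and −0.55 (adjusted p = 0.136) without that library. Its rise with TGF-β in empty vector cells was 1.79 (adjusted p = 0.0271) and 0.63 (adjusted p = 0.140) without it. Both Tead1 calls held in 8 of 17 other fits, and limma on log2(FPKM + 1) gave −0.97 between vectors and 0.95 for the rise. They also ended without untreated empty vector replicates c, d or e (adjusted p = 0.0947, 0.0881 and 0.0972) for the rise, and without Col1a1-miR-29b replicates c, d or the third library (adjusted p = 0.0619, 0.0819 and 0.0510) between vectors.

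**Figure D5:**
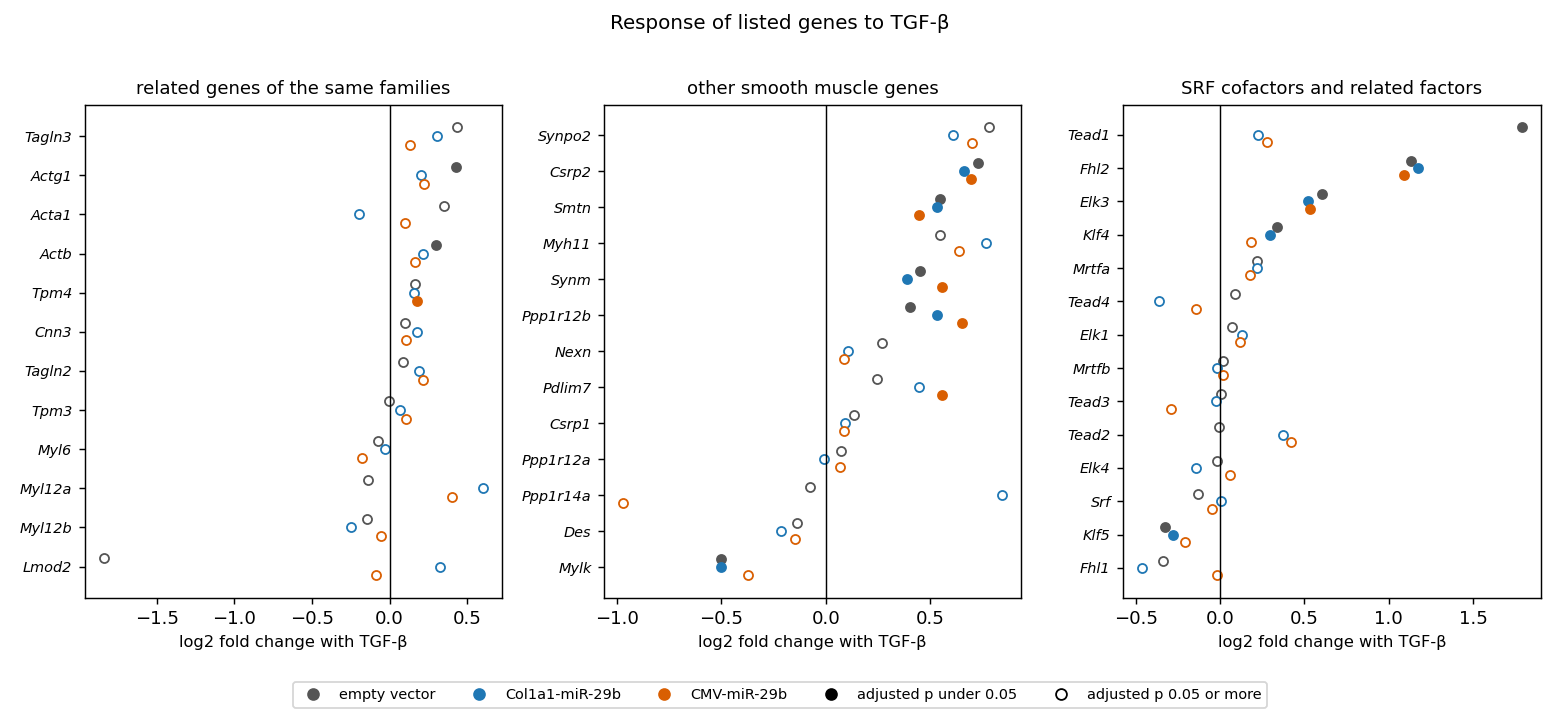
Log2 fold change with TGF-β of the tested genes of 3 lists (12 related genes of the same families, 13 other smooth muscle genes and 14 SRF cofactors and related factors) in cells with each vector (colours), from 3 libraries per group. Filled points have an adjusted p under 0.05. Smtn, Csrp2, Synm, Ppp1r12b, Fhl2 and Elk3 are filled under all 3 vectors.

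The genes whose pattern over the 6 groups was most like that of Acta2 were sought among 13911 genes with a mean CPM (counts scaled to a fixed library total) of at least 1, by the root mean square difference of log2 group means after each gene was centred on its own mean. The closest 5 outside the contractile genes were Flrt2 (0.125), F630040K05Rik (0.127), Cthrc1 (0.131), Cyb561 (0.134) and Anxa8 (0.134). By the same measure, Tagln came at rank 97 with 0.419, Tpm1 at 249, Cald1 at 535 and Cnn2 at 959. Tpm2 stood at rank 12137 and Cnn1 at 13378, near the far end, and both had fallen with TGF-β in empty vector cells. Actg2, Myl9 and Lmod1 were under the minimum level.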

How the data were processed

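The labels name cutadapt, FastQC, HISAT2 and StringTie as the tools behind the files, without versions. The deposited counts are whole numbers for each gene, not normalised, and how they were obtained is not stated. The FPKM values, scaled by the authors for transcript length and library total, were used in 16 libraries. For both Col1a1-miR-29b groups, the letter of the third column fits no sample title. Its counts served as a library of the group, and its FPKM, 2 columns in all, was left out. Labels name mm9, but the coordinates of 52506 of the 55450 genes, all 10 contractile genes among them, are identical to GENCODE vM21 for GRCm38. The study's paper gives an Ensembl release of the mouse genome as the one used for mapping.

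The fit used R 4.3.3 and edgeR 4.0.16 with filterByExpr, TMM scaling, 1 mean per group over 18 libraries, quasi-likelihood F tests, Benjamini-Hochberg adjustment over 21161 genes and a threshold of 0.05. Standard errors come from the F statistic, and intervals are 95%. Among counts from 1 to 40, 33.8% to 36.7% were multiples of 4, where chance gives 25%, so 1 alternative divided counts by 4. Counting error alone covers neither this nor the spread between libraries. Figures used matplotlib 3.10.9 in Python 3.11.15.

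The contractile genes and the gene lists were chosen with earlier results of these data known. Named by rule are all 10 contractile genes, the 4 genes of each list with the smallest adjusted p for TGF-β in empty vector cells, up to 4 more past the threshold between vectors, and the 5 genes most like Acta2. Ppp1r12b, Pdlim7, single markers and list genes too low to be tested are named outside this rule. Of 2 entries named Myl12b the one with more counts was used. The alternatives were DESeq2 1.42.0, its size factors in edgeR, the 2 groups compared alone, scaling by total counts, a looser filter (any library with 1 count) and a stricter one (10 counts in all libraries), the replicate block, the fit without the unlettered libraries, log2 FPKM with 1 or 0.1 added in limma 3.58.1, counts divided by 4, and each library left out in turn.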

Additional observations from a re-analysis of the deposited data

How the results depend on the processing

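Of the 90 log2 fold changes of the 10 contractile genes in 9 comparisons, 45 kept their direction and their side of the threshold in each alternative run and in each fit that left out a library. There were 11 alternatives, and 9 for Actg2, which did not pass the stricter filter or the filter on counts divided by 4. Of the 12 that passed, those of Acta2 and Tpm1 under all 3 vectors and of Tpm2 with CMV-miR-29b passed in every one of these fits, with Acta2 from 0.99 (Col1a1-miR-29b, limma on log2(FPKM + 1)) to 2.21 and Tpm1 from 0.54 to 0.75. In empty vector cells 2 of the 10 passed when the groups were compared alone, against 4, and of all genes 618 of 19011 passed, against 1245 of 21161. In Col1a1-miR-29b cells 2 passed with the replicate block and 2 without the unlettered libraries, and 2 to 3 when a library was left out, against 4, and of all genes 394, 453 and 630 to 679 passed, against 914. The cause was not tested. The replicate block gave Acta2 a log2 fold change of 1.63 with TGF-β in empty vector cells (adjusted p = 4.16e-05) and Tpm1 0.63 (adjusted p = 0.00193). Whether letters pair the libraries is not stated. The 36 pairs of libraries with one letter correlated at 0.00791 on average in 11217 genes, once group means were taken off, with 4 of the 36 over 0.1, and the 70 remaining pairs at −0.00418 on average. With total count scaling the share of all calls that were higher moved from 65.9% to 53.1% for TGF-β in empty vector cells, and the same 4 contractile genes passed.

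Another sign was seen in at least 1 fit for 38 of the 90 values, none of them past the threshold in either fit, and the cause was not tested. With total count scaling the values with another sign were Acta2 0.014 and Cnn2 0.012 for CMV-miR-29b against the empty vector with TGF-β and Tagln 0.023 and Tpm2 0.026 for Col1a1-miR-29b against the empty vector without TGF-β. With the replicate block the values with another sign were Myl9 −0.16 and Lmod1 0.20 for TGF-β in Col1a1-miR-29b cells and Tpm2 0.0026 and Lmod1 −0.30 for Col1a1-miR-29b against the empty vector without TGF-β. Without the 2 unlettered libraries the values with another sign were Myl9 −0.064 and Lmod1 0.19 for TGF-β in Col1a1-miR-29b cells and Tagln 0.0087, Tpm2 0.0048 and Lmod1 −0.24 for Col1a1-miR-29b against the empty vector without TGF-β. With limma on log2(FPKM + 1) the values with another sign were Myl9 −0.026 and Lmod1 0.030 for TGF-β in Col1a1-miR-29b cells, Acta2 0.014 and Cnn2 0.016 for CMV-miR-29b against the empty vector with TGF-β and Tagln 0.025, Tpm2 0.037 and Lmod1 −0.038 for Col1a1-miR-29b against the empty vector without TGF-β. With limma on log2(FPKM + 0.1) the values with another sign were Myl9 −0.078 and Lmod1 0.12 for TGF-β in Col1a1-miR-29b cells, Acta2 0.018 and Cnn2 0.016 for CMV-miR-29b against the empty vector with TGF-β, Tagln 0.052, Tpm2 0.037 and Lmod1 −0.14 for Col1a1-miR-29b against the empty vector without TGF-β and Actg2 0.0069 and Tagln −0.019 for CMV-miR-29b against the empty vector without TGF-β. With 1 library left out, values for TGF-β in Col1a1-miR-29b cells ran for Myl9 from −0.11 to 0.28 and Lmod1 from −0.24 to 0.23. Values for TGF-β in CMV-miR-29b cells ran for Myl9 from −0.36 to 0.062. Values for Col1a1-miR-29b against the empty vector with TGF-β ran for Acta2 from −0.11 to 0.034, Cnn2 from −0.026 to 0.12, Myl9 from −0.15 to 0.40, Tpm2 from −0.023 to 0.034, Tpm1 from −0.21 to 0.0090 and Cald1 from −0.39 to 0.065. Values for CMV-miR-29b against the empty vector with TGF-β ran for Actg2 from −0.57 to 0.21, Cnn1 from −0.027 to 0.20, Cnn2 from −0.12 to 0.025, Acta2 from −0.070 to 0.075, Myl9 from −0.17 to 0.38, Cald1 from −0.024 to 0.35 and Lmod1 from −0.053 to 0.34. Values for Col1a1-miR-29b against the empty vector without TGF-β ran for Acta2 from −0.043 to 0.18, Tpm1 from −0.11 to 0.0089, Tpm2 from −0.032 to 0.0061, Tagln from −0.14 to 0.15, Cnn2 from −0.095 to 0.12 and Lmod1 from −0.24 to 0.23. Values for CMV-miR-29b against the empty vector without TGF-β ran for Tagln from −0.38 to 0.20, Cnn1 from −0.19 to 0.073, Cnn2 from −0.17 to 0.040, Myl9 from −0.21 to 0.086, Actg2 from −0.56 to 0.49, Lmod1 from −0.31 to 0.10 and Cald1 from −0.10 to 0.032. Values for the difference of responses with Col1a1-miR-29b ran for Cnn2 from −0.051 to 0.16, Tpm1 from −0.15 to 0.056, Cald1 from −0.33 to 0.12 and Tpm2 from −0.0055 to 0.047. Values for the difference of responses with CMV-miR-29b ran for Actg2 from −0.77 to 0.41, Cnn2 from −0.052 to 0.16, Tpm1 from −0.16 to 0.044, Myl9 from −0.13 to 0.41 and Cald1 from −4.6e-05 to 0.38.

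Depth limits Actg2, Myl9 and Lmod1 most, with 9 to 104 counts per library. Intervals cover the spread between 3 libraries per group and cannot show differences between cultures that the labels do not separate. Whether counts on the actin genes were assigned to the right gene, and on which strand those of Tagln were counted, cannot be read from the files.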
